A study of Mus musculus with 6 samples.

Results

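The 8 genes described here, *Nr5a1*, *Fezf1*, *Cbln1*, *Sox14*, *Tac1*, *Adcyap1*, *Bdnf* and *Slc17a6*, are known markers of the ventromedial nucleus of the hypothalamus (VMH), and they were followed in RNA that had been dissected from its neighbour, the arcuate nucleus (ARC). They were chosen by name as marker genes and found by their symbols, 8 of the 24015 genes in the count tables, and all 8 were among the 15236 genes that passed the filter on low counts. ARC was cut by hand from a coronal slice of hypothalamus of adult female mice on a mixed CD-1, 129P2 and C57BL/6 background. All 6 libraries came from animals with floxed *Esr1* alleles. The 3 control libraries had the genotype Esr1fl/fl alone, and the 3 mutant libraries Esr1fl/fl;Nkx2-1-Cre, in which Cre is made under the *Nkx2-1* promoter and removes estrogen receptor α (ERα) from the medial basal hypothalamus, the VMH and the ARC alike. Any VMH cells in a mutant dissection are thus subject to the deletion as well. The study's methods judged a dissection by the presence of *Agrp* and *Cited1* for the ARC and the absence of *Tac1* and *Cbln1* for the VMH, and the question followed here is what each of the markers shows library by library.

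The VMH lies beside and above the ARC and, unlike it, is built mostly of neurons that release glutamate. Its neurons are specified by the nuclear receptor SF-1, the product of *Nr5a1*, which in the brain is made in the VMH and serves as its defining marker. The ventrolateral end of the nucleus, where ERα and *Tac1* are found together in female rodents, is known for roles in physical activity, energy use and sexual behaviour, and the dorsomedial part, rich in PACAP and BDNF, for roles in feeding and metabolism. The other members are less exclusive. *Slc17a6* marks glutamate neurons throughout the hypothalamus and thalamus, and *Tac1*, *Adcyap1* and *Bdnf* are also made by neurons of neighbouring nuclei.

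The sequence just before the start of transcription is shown for 2 markers that moved together from library to library, *Fezf1* and *Adcyap1*, and for *Tac1*, which did not move with them. RefSeq's table of promoters held 6 of the 8 members. *Nr5a1* and *Cbln1* had no entry. Each run gives the 250 bases before the start, 5′ to 3′ on the gene's own strand, on assembly GRCm38.p6, a later build than the one used for gene positions in the rest of the text. Capitals mark TGACG or its reverse complement CGTCA, the half-site of the cyclic AMP response element.
*Fezf1*, chr6:23248265-23248514, minus strand: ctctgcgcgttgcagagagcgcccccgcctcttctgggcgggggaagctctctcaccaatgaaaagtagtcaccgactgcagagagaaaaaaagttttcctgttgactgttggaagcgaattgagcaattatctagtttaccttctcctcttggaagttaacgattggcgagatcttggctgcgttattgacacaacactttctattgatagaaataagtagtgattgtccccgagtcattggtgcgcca
*Adcyap1*, the first of 2 starts, chr17:93198767-93199016, plus strand: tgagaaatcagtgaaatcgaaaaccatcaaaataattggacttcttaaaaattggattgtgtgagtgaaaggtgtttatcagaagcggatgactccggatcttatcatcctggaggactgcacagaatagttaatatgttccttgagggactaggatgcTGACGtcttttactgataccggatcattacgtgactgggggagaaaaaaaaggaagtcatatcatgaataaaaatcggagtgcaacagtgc
*Tac1*, chr6:7554811-7555060, plus strand: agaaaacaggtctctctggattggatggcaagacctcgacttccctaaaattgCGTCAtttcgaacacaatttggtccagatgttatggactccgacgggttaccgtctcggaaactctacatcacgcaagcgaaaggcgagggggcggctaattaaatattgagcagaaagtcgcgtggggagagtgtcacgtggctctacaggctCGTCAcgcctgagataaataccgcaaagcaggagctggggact
The *Fezf1* window held no half-site. The *Adcyap1* window held 1, beginning 91 bases before the start, and the *Tac1* window held 2, beginning 197 and 43 bases before it. Among the members' windows not printed, 1 half-site each lay before the third of 7 starts of *Bdnf* and the second of 2 starts of *Slc17a6*. The window before the second start of *Adcyap1* overlaps the printed one. Its 1 half-site, beginning 242 bases before that start, is the same bases as the half-site printed above. The window of *Sox14* held none. Of 32851 windows of this length in the table, 17.8% held the half-site on either strand. The core of an SF-1 site, AAGGTCA or TGACCTT, was in none of the windows of the 6 members and in 4.08% of all windows. The letters TATAAA or TTTATA were in 12.4% of all windows and, among the members, before the second start of *Adcyap1*. The 3 motifs share no letters by overlap in these windows. A match is a description of the letters and not a site of binding, and the absence of one says only that the letters are not in the window.

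Libraries held between 11792440 and 17877137 counts on genes, so that 3 counts, the most a count of 0 allows, correspond to between 0.175 and 0.248 CPM, a floor that covers counting error only. Levels are given as CPM, the count scaled to a common library size after TMM normalization. *Esr1*, the targeted gene, was at 48.5 to 64.5 CPM in control libraries and 7.06 to 11.8 CPM in the mutants, with no overlap. The ARC markers were present in every library. *Agrp*, the agouti-related peptide of hunger-promoting neurons, was at 26.3 to 39.0 CPM in controls and 30.1 to 40.0 CPM in mutants, and *Cited1* was at 57.7 to 70.7 and 60.0 to 76.6 CPM. The labels do not say that each library came from its own animal, and p-values below measure the spread between these libraries, which may be technical. Some libraries stood apart in genes of tissue next to the ARC. *Cga*, a hormone subunit of the pars tuberalis of the pituitary, was at 3.26 CPM in control 2 and between 372.3 and 581.7 CPM in the other 5 libraries.

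None of the 8 markers was absent from any library. The lowest count of *Fezf1* was 17, in control 1, above the floor of 3 counts. What differed was how much of each marker a library held. For *Nr5a1*, *Fezf1*, *Cbln1*, *Sox14*, *Adcyap1* and *Slc17a6* the highest and the lowest mutant library were further apart, as a ratio, than the means of the genotypes. In these bulk samples, fewer cells of a type and less RNA per cell cannot be told apart. In control 1 and mutant 1 the levels of *Nr5a1*, *Fezf1*, *Cbln1* and *Slc17a6* were the lowest of their groups, and in mutant 2 and mutant 3 they were the highest of all 6 libraries. *Tac1* did not follow this order. No member passed the threshold between genotypes (0 of 8, against 18 of 15236 genes, 0.118%, at an adjusted p under 0.05 with edgeR's quasi-likelihood test).

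**Figure D1:**
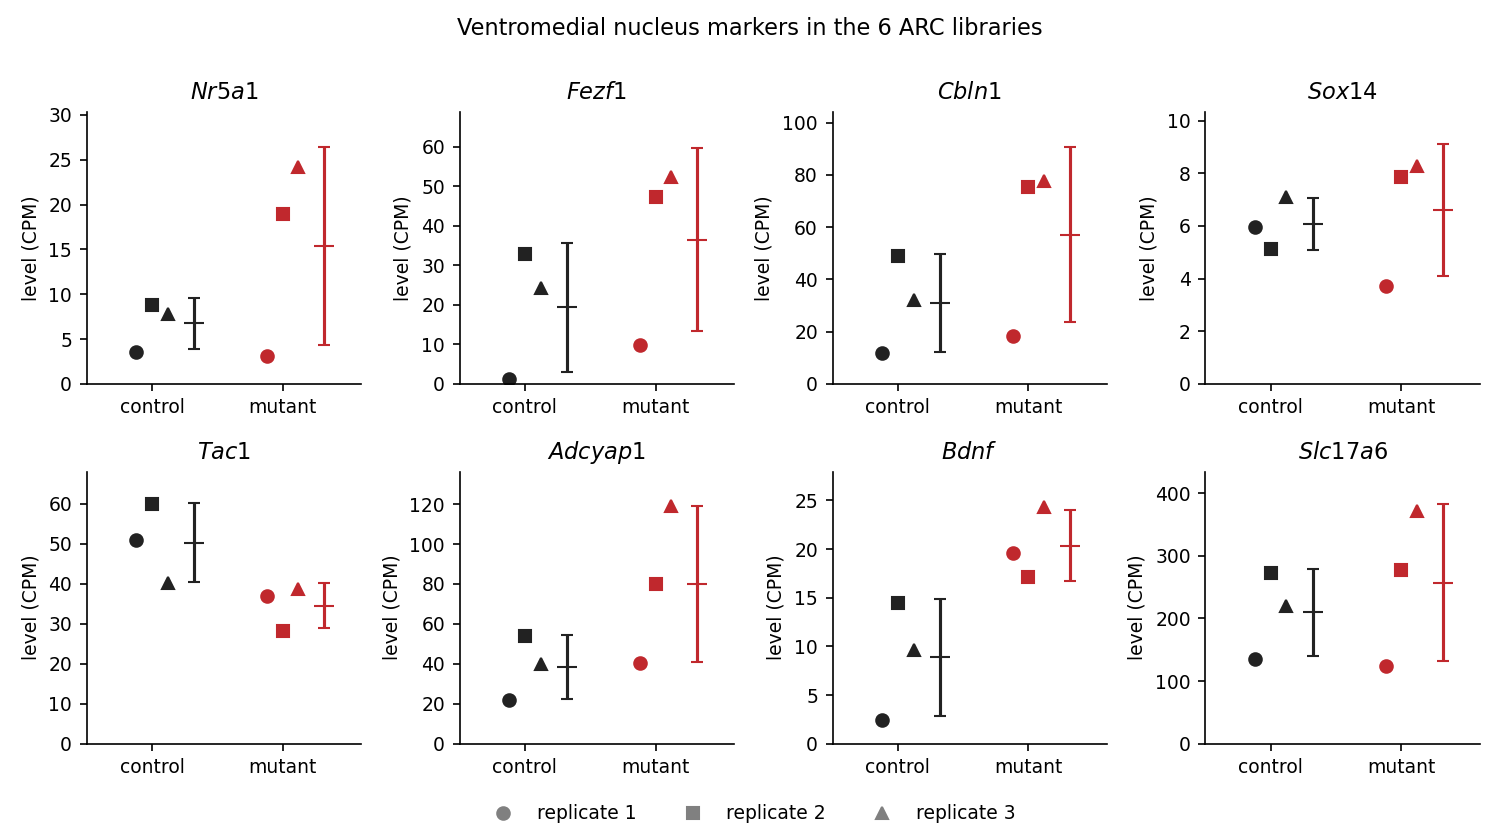
Level of each of the 8 markers (CPM after TMM scaling, linear axes from 0) in the 3 control (black) and 3 mutant (red) libraries, with a symbol for each replicate number and, to the right of the points, the mean and SD (n = 3). Replicate 1 is the lowest of its group for *Nr5a1*, *Fezf1*, *Cbln1*, *Adcyap1* and *Slc17a6* in both genotypes, the groups overlap for all markers except *Bdnf* and *Tac1*, and for *Tac1* the mutant values lie below the control values.

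Among the transcription factors, *Nr5a1* (chromosome 2, 38548176 to 38570062, minus strand, NCBIM37 assembly with GENCODE annotation) was at 3.55, 8.84 and 7.82 CPM in control 1, 2 and 3. In mutant 1, 2 and 3 it was at 3.05, 18.9 and 24.2 CPM. The lowest mutant lay below all controls and the other two above all of them, so the groups overlapped. Control libraries averaged 6.74 ± 2.81 CPM (SD, n = 3) and mutant libraries 15.4 ± 11.0 CPM, and the log2 fold change was 1.20 (SE 0.80, adjusted p = 0.752 by edgeR). Within the mutants, the highest library held 7.94 times as much as the lowest. The standard deviation within genotypes was 1.24 on the log2 scale, larger than that of 99.25% of all tested genes.

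*Fezf1*, which encodes a zinc finger repressor needed for the VMH to form (chromosome 6, 23195047 to 23198264, minus strand), was the most uneven of the 8. It was at 1.14, 32.7 and 24.2 CPM in control 1, 2 and 3, a range of 28.8-fold within 1 genotype. The mutant libraries held 9.90, 47.2 and 52.3 CPM. Control 1 stood far below every other library, and mutant 1 came next. Means were 19.4 ± 16.3 CPM in controls and 36.5 ± 23.2 CPM in mutants (SD, n = 3 each), with a log2 fold change of 0.92 and a standard error, 1.19, that exceeded it (adjusted p = 0.886 by edgeR). Its standard deviation within genotypes, 2.06 on the log2 scale, was larger than that of 99.9% of tested genes.

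*Sox14*, another transcription factor gene of hypothalamic and other diencephalic neurons (chromosome 9, 99774644 to 99776663, minus strand), varied far less. Its levels were 5.96, 5.12 and 7.10 CPM in the controls. They were 3.71, 7.85 and 8.26 CPM in the mutants, with mutant 1 the lowest of the 6 libraries and mutant 3 the highest. The highest control library held 1.39 times the lowest, and the log2 fold change was 0.14 (SE 0.29, adjusted p = 0.932 by edgeR). Without mutant 2 or without mutant 3 the sign of this small difference turned, to -0.0045 and -0.052.

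Of the secreted proteins and peptides, *Cbln1*, whose product bridges both sides of a synapse (chromosome 8, 89992761 to 89996508, minus strand), ordered the libraries exactly as *Fezf1* did. Its control levels were 11.7, 49.1 and 32.1 CPM and its mutant levels 18.3, 75.4 and 77.7 CPM. Replicates numbered 1 were lowest in both genotypes, 4.21-fold below the highest control and 4.24-fold below the highest mutant. The log2 fold change was 0.89 (SE 0.79, adjusted p = 0.821 by edgeR). The annotation lists a second, overlapping entry under the same symbol.

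*Adcyap1*, the gene of the neuropeptide PACAP (chromosome 17, 93598762 to 93604825, plus strand), was at 22.0, 54.0 and 39.7 CPM in control libraries and 40.5, 80.2 and 118.8 CPM in the mutants. Mutant 1 fell among the controls and the other two mutants above them. Control libraries averaged 38.6 ± 16.0 CPM and mutant libraries 79.8 ± 39.2 CPM (SD, n = 3 each), and the log2 fold change was 1.05 (SE 0.53, adjusted p = 0.655 by edgeR).

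*Bdnf*, the gene of brain-derived neurotrophic factor (chromosome 2, 109514857 to 109567204, plus strand), was at 2.48, 14.5 and 9.61 CPM in the controls. In the mutants it was at 19.6, 17.1 and 24.3 CPM. All 3 mutant values lay above all 3 control values, which held for 7.88% of all tested genes in this direction, and mutant 1 was not low, as it was for *Nr5a1*, *Fezf1* and *Cbln1*. Control 1 held the least, as it did of *Fezf1*. The log2 fold change was 1.19 (SE 0.59, p = 0.097 before and 0.646 after adjustment in edgeR's test), and an exact permutation test gave 0.1, the smallest p that 3 libraries against 3 allow.

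*Tac1*, which encodes the precursor of substance P and neurokinin A (chromosome 6, 7505071 to 7512973, plus strand), was at 50.9, 60.0 and 40.1 CPM in control libraries and 37.0, 28.1 and 38.6 CPM in the mutants. All mutant values lay below all control values, with control 3 and mutant 3 close together. Genes with all 3 mutant values lower made up 7.88% of those tested. Control libraries averaged 50.3 ± 9.95 CPM and mutant libraries 34.5 ± 5.65 CPM (SD, n = 3 each). The log2 fold change was -0.55 (SE 0.17), with an edgeR p-value of 0.00998 before adjustment and 0.355 after. It was the 1 member of 8 with an unadjusted p under 0.05, against 8.85% of all tested genes, and it had the steadiest level of the 8, with a standard deviation within genotypes of 0.27 on the log2 scale. The exact permutation p was again 0.1, the smallest possible.

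*Slc17a6*, the vesicular glutamate transporter VGLUT2 that loads glutamate into synaptic vesicles (chromosome 7, 58877200 to 58926495, plus strand), was at 135.9, 272.8 and 219.9 CPM in control libraries and 123.4, 276.6 and 371.1 CPM in the mutants, with control 1 and mutant 1 lowest again. The log2 fold change was 0.30 (SE 0.50, adjusted p = 0.914 by edgeR), and it was -0.066 without mutant 3.

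**Figure D2:**
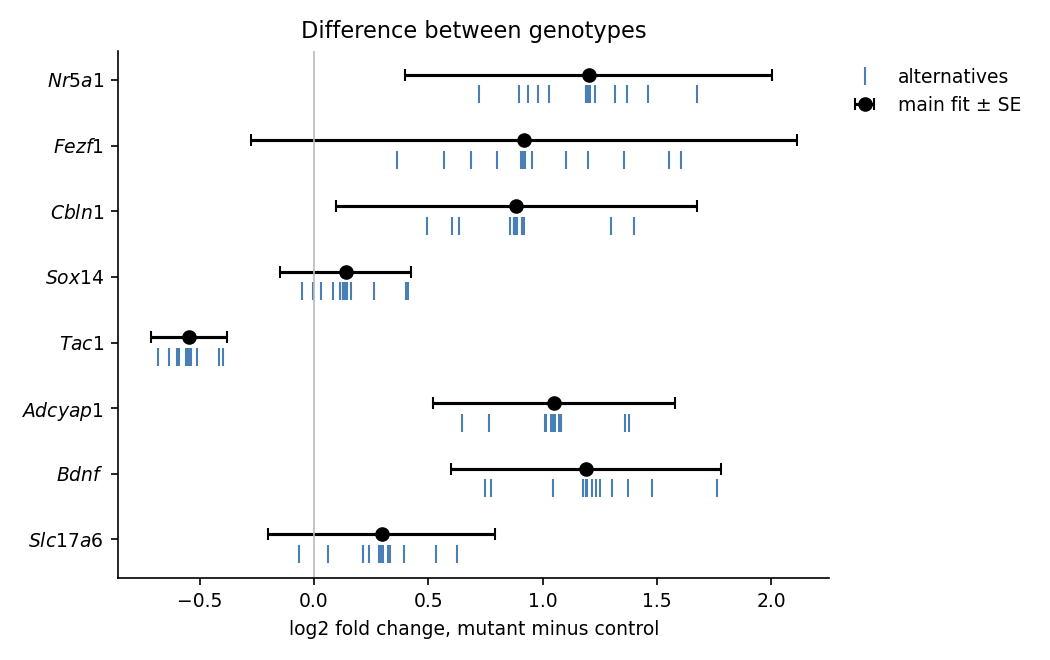
Log2 fold change of each marker, mutant minus control (horizontal axis), in edgeR's fit with its standard error (black), and the values under other normalizations, filters, tests and with libraries left out (blue ticks). *Tac1* lies below 0 in all of them, at -0.55 with all libraries, whereas *Sox14* and *Slc17a6* fall on both sides of 0.

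The fold changes of 7 of the 8 markers were positive, as were 7763 of all 15236 tested genes. The median over the members was 0.90 on the log2 scale, against 0.00355 over all tested genes. Several members moved together over the same libraries, so their signs are not independent of one another. Of 12 other VMH genes described below, 6 had a positive and 6 a negative fold change, with a median of -0.066. DESeq2, the tool named in the study's methods, called 0 of the 8 as well, against 191 of 15105 genes, 1.26%. Oligodendrocyte genes were separated by genotype over the same libraries. All 8 genes of that list were higher in every mutant than in every control, as were 7.88% of all tested genes. Their summed level was 629.7 to 1172 CPM in controls and 1518 to 1677 CPM in mutants, and 1 of them, the tight junction gene *Cldn11*, passed the threshold (log2 fold change 1.27, adjusted p = 0.0313 by edgeR). The myelin genes *Mbp* and *Cnp* were among the most abundant of that list and none of its defining genes was at 0. Their part in the differences of the VMH markers was not tested.

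Since a gene's count grows with the length of its transcript, levels of different markers were compared only per kilobase of annotated exon. On that scale the control means ran from *Tac1* at 48.7 ± 9.62 CPM per kilobase (SD, n = 3) and *Slc17a6* at 48.5 ± 16.0 down to *Adcyap1* at 18.5 ± 7.68, *Cbln1*, whose 3 values lay between 4.52 and 19.0, and *Fezf1* at 8.39 ± 7.08. *Sox14* followed at 3.30 ± 0.542, with *Nr5a1* at 1.59 ± 0.662 and *Bdnf* at 1.51 ± 1.03 lowest. Of the neighbours in this order, only *Slc17a6* and *Adcyap1*, and *Sox14* and *Nr5a1*, had control values that did not overlap. In the mutants *Slc17a6* was at 59.5 ± 28.9 CPM per kilobase, *Adcyap1* at 38.2 ± 18.8 and *Tac1* at 33.4 ± 5.46, and the ranges of all neighbours in the mutant order overlapped. Ranges ignore that the levels of different markers come from the same libraries. Within every library *Slc17a6* was above *Adcyap1*, *Adcyap1* above *Cbln1* and *Cbln1* above *Fezf1*. The other neighbours did not keep 1 order in every library. By these means *Nr5a1*, the gene that defines the nucleus, was among the scarcest of the 8 in both genotypes, at a mutant mean of 3.63 ± 2.60 CPM per kilobase.

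To ask which markers rise and fall together from one dissection to the next, the log2 CPM of every pair was correlated over the 6 libraries. *Fezf1* and *Cbln1* ranked the libraries identically (Spearman's rho = 1), from control 1 through mutant 1, control 3, control 2 and mutant 2 to mutant 3. *Nr5a1* and *Slc17a6* also ranked them alike (rho = 1), with the 2 lowest libraries in the opposite order. *Tac1* ran from mutant 2, its lowest library, to control 2, its highest.

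**Figure D3:**
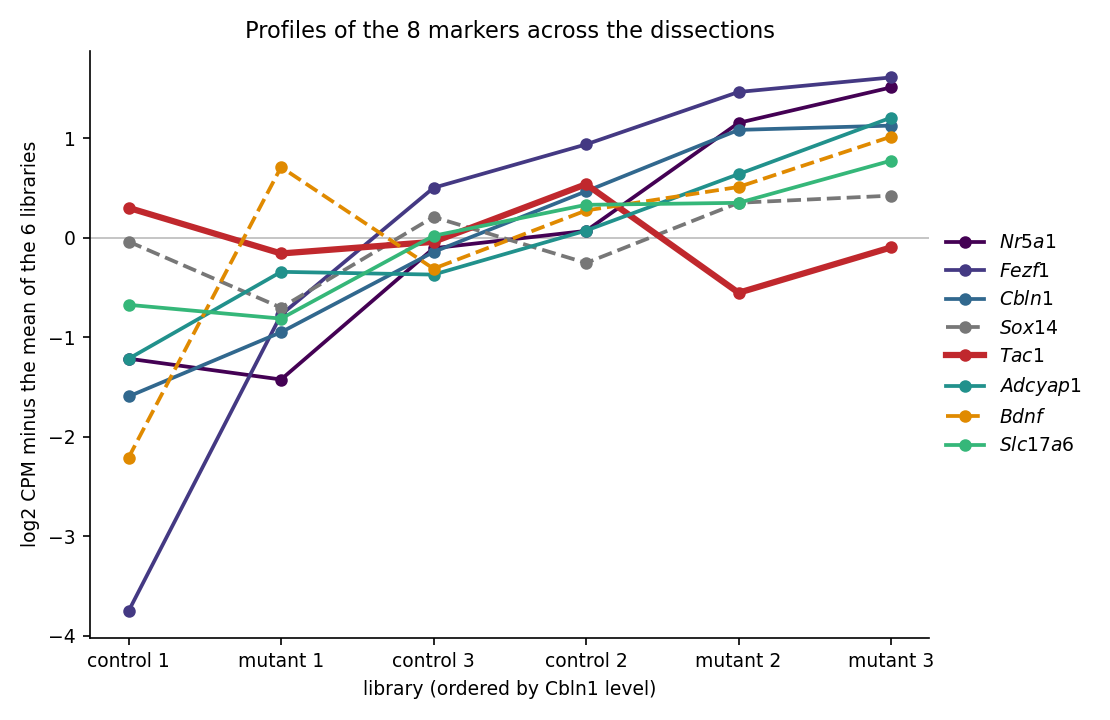
Log2 CPM of each marker minus its mean over the 6 libraries (vertical axis), with the libraries ordered by their *Cbln1* level (horizontal axis); lines join the values of 1 gene and imply no order in time. Solid lines of *Nr5a1*, *Fezf1*, *Cbln1*, *Adcyap1* and *Slc17a6* climb together from left to right, the dashed lines of *Bdnf* and *Sox14* climb unevenly, and *Tac1* (red) does not climb.

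Of the 28 pairs, 21 had a positive Pearson's r, 11 had an exact two-sided permutation p under 0.05, and 4 kept an adjusted p under 0.05 over the 28 pairs. Those 4 were *Nr5a1* with *Slc17a6* (r = 0.96), *Fezf1* with *Cbln1* (r = 0.93), *Fezf1* with *Adcyap1* (r = 0.88) and *Cbln1* with *Adcyap1* (r = 0.94), each with an adjusted permutation p of 0.0389. *Nr5a1* with *Slc17a6* and *Fezf1* with *Cbln1* had an exact p of 0.00278, the smallest that 6 libraries allow, for r and for rho alike, and remained past the threshold by rho (adjusted permutation p = 0.0389). The pairs of *Adcyap1* had rho = 0.94 (exact p = 0.0167, adjusted 0.0583), and with plain library sizes in place of TMM their adjusted permutation p for r was 0.0556. The pairs share their libraries and their members and are not independent of one another.

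Leaving out the 2 libraries farthest from the median of the first gene left r at 0.89 for *Nr5a1* with *Slc17a6*, 0.99 for *Fezf1* with *Cbln1*, 0.97 for *Fezf1* with *Adcyap1* and 0.94 for *Cbln1* with *Adcyap1*. The libraries left out were mutant 1 and mutant 3 for *Nr5a1*, and control 1 and mutant 1 for *Fezf1* and *Cbln1*. Without control 1 and mutant 1, the remaining mutants lay above the remaining controls for *Fezf1*, *Cbln1* and *Adcyap1*. The r values of those pairs thus also carry the difference between genotypes. After the mean of each genotype had been subtracted, r was 0.98, 0.92, 0.89 and 0.96 for the 4 pairs in the same order, given as values with no test. The 4 pairs of these markers thus kept a high r without the difference between genotype means. These values pool the deviations of controls and mutants and are not an r within 1 genotype. For each of these markers control 1 and mutant 1 were the lowest of their groups.

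*Nr5a1* had r = 0.95 with *Cbln1* (exact permutation p = 0.0139, adjusted 0.0648), 0.90 with *Adcyap1* (p = 0.0194, adjusted 0.0681, exact permutation), and 0.81 with *Fezf1* (p = 0.0167, adjusted 0.0667, exact permutation). With *Sox14* it had r = 0.81 (exact permutation p = 0.0528, adjusted 0.123). Over the 15235 other tested genes, r with *Nr5a1* had a median of -0.0063 and its central 90% ran from -0.77 to 0.81. *Slc17a6* and *Cbln1* stood above 99.67% and 99.49% of those genes, *Adcyap1* above 98.2%, and *Fezf1* and *Sox14* near 95%, at 94.96% and 94.89%. *Bdnf* (r = 0.55) stood above 83.4% and *Tac1* (r = -0.39) above 23.8%. With genotype means subtracted, the shares were 99.36% for *Slc17a6*, 97.66% for *Cbln1*, 96.8% for *Adcyap1*, 92.07% for *Sox14* and 87.76% for *Fezf1*. For *Bdnf* and *Tac1* they were 71.09% and 43.42%. *Adcyap1* and *Sox14* had a higher r after subtraction, 0.93 and 0.85, but a lower share. High values are thus more common among r with genotype means subtracted.

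*Bdnf* was close to *Fezf1* (r = 0.86, exact permutation p = 0.117, adjusted 0.233), and both were lowest in control 1. Without control 1, r was 0.15, without mutant 1 it was 0.98, and without both it was 0.96. In the libraries left without both, the mutants lay above the controls for *Bdnf* and *Fezf1* alike, so the 0.96 also carries the difference between genotypes. With genotype means subtracted r was 0.88. For *Sox14* and *Bdnf* r was near 0 over the 6 libraries (r = 0.024, exact permutation p = 0.833), which does not show that they are unrelated. It ran from -0.23 to 0.47 with 1 library left out. Without control 2 and mutant 1, the libraries farthest from the median of *Sox14*, it was 0.998. *Tac1* was negatively correlated with each of the other 7 members, with r between -0.14 and -0.45 and exact permutation p-values of 0.347 or more. With genotype means subtracted its r ranged from -0.47 with *Sox14* to 0.20 with *Bdnf*. In neither set was the r of *Tac1* positive with *Nr5a1* or with *Cbln1*, the other VMH gene that the methods name beside it.

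**Figure D4:**
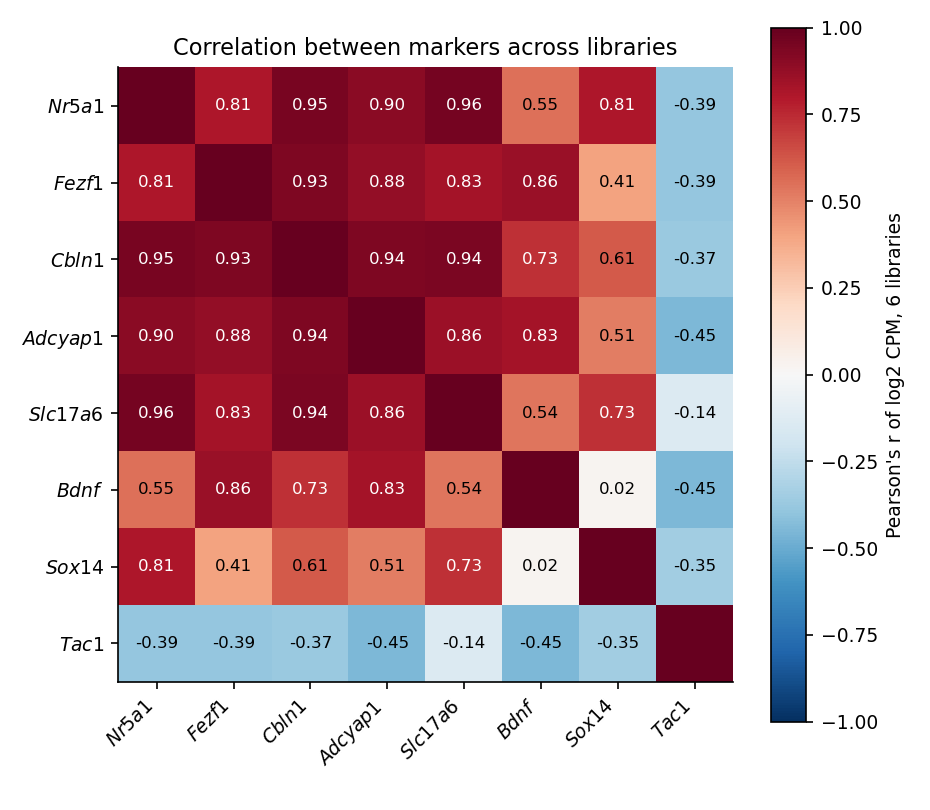
Pearson's r of log2 CPM over the 6 libraries for each pair of markers, from blue (-1) to red (1). The block of *Nr5a1*, *Fezf1*, *Cbln1*, *Adcyap1* and *Slc17a6* holds values from 0.81 to 0.96, *Bdnf* and *Sox14* are mixed, and the row of *Tac1* is negative throughout.

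Another 13 genes known from the VMH were examined in the same way, of which 12 passed the filter and *Vgll2*, at 1 to 14 counts per library, did not. None was called between genotypes (0 of 12), 6 had a positive and 6 a negative log2 fold change, and the median was -0.066. Their r with *Nr5a1* had a median of 0.58 and ran from -0.82 to 0.94. The most abundant of them, *Irs4*, an insulin receptor substrate, and *Dlk1*, a membrane-bound Notch ligand relative, had r = -0.82 and -0.72, whereas *Gda*, guanine deaminase, had r = 0.91. *Gda* was at 82.1, 215.9 and 150.9 CPM in control libraries and 114.5, 233.2 and 252.7 CPM in the mutants, the same order of libraries as *Fezf1* and *Cbln1*.

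Chosen after their values were seen, *Nptx2*, a secreted pentraxin of synapses, and *Cnr1*, the cannabinoid receptor CB1, were also close to *Nr5a1*, at r = 0.94 and 0.92. *Cnr1* was at 43.3, 124.0 and 90.4 CPM in control libraries and 39.1, 119.9 and 136.0 CPM in the mutants. *Pgr*, the estrogen-induced progesterone receptor gene and likewise chosen after its values were seen, gave r = -0.043 over all 6 libraries and r = 0.98 once genotype means were subtracted. It was at 110.4, 123.0 and 117.3 CPM in control libraries and 64.1, 80.9 and 80.3 CPM in the mutants, lowest in replicate 1 of each, and its log2 fold change of -0.64 fell just short of the threshold (adjusted p = 0.0567 by edgeR).

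Over 14 ARC genes the median r with *Nr5a1* was -0.21 and the highest 0.19. With genotype means subtracted the median was -0.42, and 13 of the 14 had a negative r. The most abundant were *Sst*, *Prlr* and *Cartpt*, with r = -0.34, -0.49 and -0.16. *Agrp* had r = -0.22 and *Cited1* r = -0.71, and *Tbx3*, an ARC transcription factor named after its values were seen, had r = -0.95. It was at 273.9, 226.05 and 231.3 CPM in control libraries and 273.9, 224.2 and 196.7 CPM in the mutants. *Slc6a3*, the dopamine transporter, was the 1 ARC gene called between genotypes (log2 fold change -2.25, adjusted p = 0.000884 by edgeR), so its r over all 6 libraries, -0.27, also carries the difference between genotypes, and with genotype means subtracted its r was 0.73, the 1 positive value among the ARC genes.

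Transmitter genes were compared with *Nr5a1* as well. *Slc32a1*, the vesicular GABA transporter, and the GABA-synthesizing enzymes *Gad1* and *Gad2* had r = -0.83, -0.82 and -0.62 with *Nr5a1*, opposite in sign to that of *Slc17a6*. *Gad1* was at 221.7, 204.5 and 216.5 CPM in control libraries and 196.8, 160.0 and 149.4 CPM in the mutants. Genes common to all neurons were positively correlated with *Nr5a1*. *Snap25*, *Syt1* and *Stmn2* had r = 0.90, 0.79 and 0.95, and the summed level of the 5 pan-neuronal genes was 3221 to 4114 CPM in controls and 3503 to 4900 CPM in mutants, lowest in control 1 and mutant 1 of each group. The part of overall neuronal content in the shared movement of the VMH markers was not tested.

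**Figure D5:**
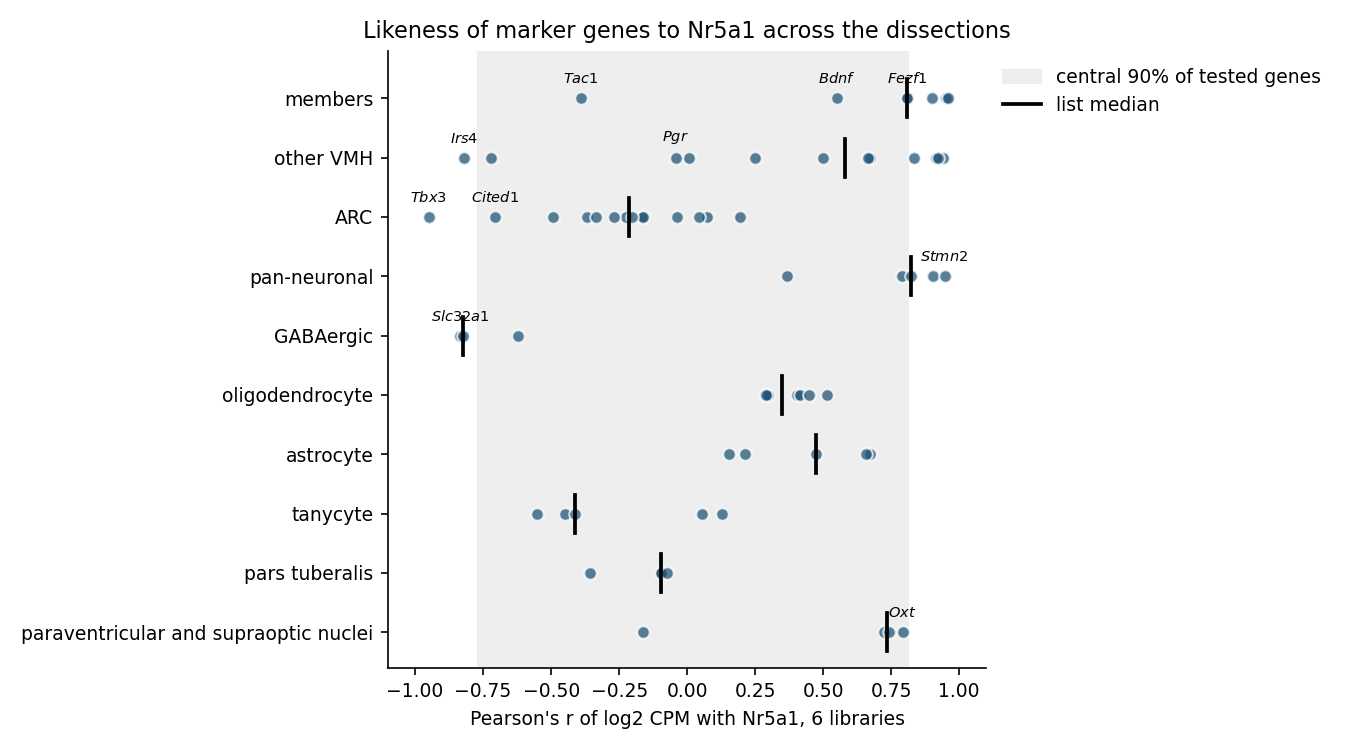
Pearson's r of log2 CPM with *Nr5a1* over the 6 libraries (horizontal axis) for the genes of 10 lists (rows, 1 point per gene), with the list median as a black bar and the range of the central 90% of tested genes shaded, from -0.77 to 0.81. VMH members and pan-neuronal genes lie to the right, GABAergic and several ARC genes to the left, and *Tac1* lies apart from the other members.

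Markers of other tissue near the ARC were followed beside the members. *Avp* and *Oxt*, the neurohypophyseal hormone genes of the paraventricular and supraoptic nuclei, had r = 0.74 and 0.79 with *Nr5a1*, and *Trh* r = -0.16. *Avp* was at 1.54, 11.9 and 1.43 CPM in control libraries and 4.46, 13.7 and 20.4 CPM in the mutants. The list's summed level was 6.96 to 26.7 CPM in controls and 12.05 to 42.6 CPM in mutants, with 0 of 4 tested genes called. Of the dorsomedial and lateral hypothalamic genes, *Ppp1r17* had r = -0.0078 and *Pmch* r = 0.64, at 0.603 to 8.61 CPM. *Npvf* had r = 0.79 at only 0.067 to 1.19 CPM, with 1 count in control 1 and 4 in mutant 1, near the floor of 3 counts. *Foxb1* of the premammillary and mammillary region had r = 0.70, *Prok2* and *Nms* of the suprachiasmatic nucleus r = -0.47 and -0.0064, and *Tcf7l2*, *Lef1* and *Prkcd* of the thalamus r = -0.50, -0.055 and -0.081. *Prok2* and *Lef1* had log2 fold changes of -2.01 and -1.01 (adjusted p = 0.0706 and 0.0895 by edgeR). Their r over all 6 libraries also carries these differences. With genotype means subtracted, r was -0.32 for *Prok2*, -0.43 for *Nms*, 0.83 for *Lef1*, -0.36 for *Tcf7l2* and -0.54 for *Prkcd*. The value of *Lef1* stood above 90.73% of the other tested genes. No gene of these 4 lists was called.

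The pars tuberalis genes *Cga*, *Tshb* and *Pitx1* had r = -0.096, -0.096 and -0.075, and control 2, where they were nearly missing, was at 8.84 CPM of *Nr5a1*, the highest of the controls. Spearman's rho, which weighs that very low library less, was -0.77 for *Cga*, -0.26 for *Tshb* and -0.37 for *Pitx1*. Median r was -0.41 over the 5 tanycyte genes, which include *Dio2*, *Gpr50* and *Col23a1*, 0.47 over the 5 astrocyte genes, which include *Slc1a3*, *Aqp4* and *Gfap*, and 0.35 over the 8 oligodendrocyte genes. It was 0.52 over the microglial genes *Csf1r*, *Cx3cr1* and *P2ry12* and -0.23 over the endothelial genes *Flt1*, *Pecam1* and *Cldn5*. None of the tanycyte, astrocyte, microglial, endothelial or pars tuberalis genes was called between genotypes. The part of these tissues in the levels of the VMH markers was not tested.

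Receptors and binding partners of the members' products were measured over the same libraries, and 0 of 12 were called. Among the most abundant were *Ntrk2*, the receptor of BDNF, at 2526, 3028 and 3116 CPM in control libraries and 2406, 2578 and 2983 CPM in the mutants, and *Adcyap1r1*, the receptor of PACAP. Their log2 fold changes were -0.12 and -0.15 (adjusted p = 0.818 and 0.772 by edgeR). The list had 2 positive and 10 negative fold changes, with a median of -0.15. *Tacr1*, the receptor of substance P named after its values were seen, was at 20.9, 23.9 and 19.5 CPM in control libraries and 24.8, 12.5 and 18.1 CPM in the mutants, and its groups overlapped.

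Of 13 relatives of the members by sequence, 10 passed the filter and 0 were called, with a median log2 fold change of 0.029. *Tac2*, the neurokinin B gene that pairs with *Kiss1* in ARC neurons, had a difference opposite in sign to that of *Tac1*, at 117.3, 99.3 and 126.5 CPM in control libraries and 280.9, 157.4 and 161.4 CPM in the mutants (log2 fold change 0.80, SE 0.25, adjusted p = 0.415 by edgeR). *Cbln4* and *Sox21* had log2 fold changes of 0.082 and -0.098. *Slc17a7*, the cortical counterpart of *Slc17a6* and named after its values were seen, was at 2.41, 0.640 and 13.8 CPM in control libraries and 3.38, 15.1 and 0.466 CPM in the mutants, high in control 3 and mutant 2 and low in mutant 3, where *Slc17a6* was highest.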

How the data were processed

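RNA of microdissected ARC from 3 control and 3 mutant female libraries was amplified (Ovation RNA-Seq System V2) and sequenced as single-end reads. According to the methods and the submitters' processing notes, the authors aligned reads with TopHat2 2.1.0 and deposited raw counts per gene symbol from HTSeq 0.6, without normalization. Those notes name the build mm9, and the methods give a name that joins 2 builds. The count files carry no coordinates, so positions are those of GENCODE vM1 on NCBIM37, matched by symbol. Whether counting used strand is not given in the sources used here, so reads of overlapping or antisense genes cannot be told apart.

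Samples were grouped by genotype from their labels. The 8 members and all gene lists were chosen with earlier results of these data known. Counts were tested for 15236 genes passing filterByExpr by the quasi-likelihood test of edgeR 4.0.16 (robust, TMM) in R 4.3.3, with Benjamini-Hochberg adjustment over all of them and a threshold of 0.05. Levels are CPM with TMM-scaled library sizes, and correlations used log2 CPM with a prior count of 2, exact permutation over pairings and adjustment over 28 pairs (numpy 2.4.6, scipy 1.17.1). Alternatives were RLE and plain library sizes, DESeq2 1.42.0, voom (limma 3.58.1), 2 filters, a replicate block, a prior count of 0.5 and each library left out. The scripts were tested on simulated data. Named genes are the 8 members, *Esr1*, *Agrp*, *Cited1*, genes of the lists that were called, the 3 most abundant of each list, and the 5 genes with a mean of at least 5 CPM most like *Nr5a1* and most like *Tac1*. Other names are said to be chosen afterwards. A few genes that the rule takes are not reported here.

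Total counts were 11792440 to 17877137 per library. The chi-square statistic per degree of freedom between libraries was 6.60 or more for every pair, so none was a copy of another within sampling noise. Reads were amplified and carry no molecular identifiers, so several can stem from 1 molecule, and floors cover counting error only.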

Additional observations from a re-analysis of the deposited data

How the results depend on the processing

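No member was called under RLE or plain library sizes, DESeq2, limma voom, either filter or with any 1 library left out. The 3 libraries a genotype limit what could be called, since 4 of the markers varied more than 4-fold between libraries of at least 1 genotype. Genes called over the whole table numbered 18, against 191 with DESeq2 and 106 with a filter of at least 1 count in any sample, and between 7 (without mutant 3) and 46 (without control 2) with 1 library left out. With the replicate block, 123 of 15236 genes were called, among them 1 member, *Cbln1* (log2 fold change 0.86, adjusted p = 0.0435). The numbers were not treated as pairs. Deviations of same-numbered libraries correlated with r = 0.28, 0.047 and -0.0026, and not every library correlated best with its own number. Leaving out both libraries numbered 1, an alternative chosen after seeing that they held the least of several markers and which narrows the spread by its construction, called 21 of 15288 genes and among them 1 member, *Nr5a1* (log2 fold change 1.37, adjusted p = 0.0414).

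The fold change of *Sox14* ranged from -0.052 to 0.41 and that of *Slc17a6* from -0.066 to 0.63 with 1 library left out, and the other 6 members kept their sign in all 15 settings. With 1 library left out, that of *Fezf1* was 0.36 (without control 1) to 1.55 (without control 2), of *Cbln1* 0.49 to 1.40 and of *Bdnf* 0.75 to 1.76 (without the same libraries), of *Adcyap1* 0.65 (without mutant 3) to 1.38 (without control 2), and of *Nr5a1* 0.72 (without mutant 3) to 1.67 (without mutant 1). Those of *Tac1* ran from -0.68 to -0.40, with adjusted p between 0.119 and 0.783 over all settings. Of the marker pairs, 4 were called with TMM and 2 with plain library sizes. The cause was not tested for any of these changes.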

Other observations

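Beyond the lists, the genes whose log2 CPM was most like that of *Nr5a1* over the 6 libraries were *Hspa12a* (r = 0.998), *Mtpn* (r = 0.997), *Chrna4* (r = 0.988), *Ablim1* (r = 0.986) and *Vstm2a* (r = 0.984), among genes with a mean of at least 5 CPM. *Chrna4*, which encodes a subunit of neuronal nicotinic acetylcholine receptors, was at 14.4, 28.3 and 29.0 CPM in control libraries and 15.0, 51.1 and 50.2 CPM in the mutants. *Hspa12a*, an atypical member of the HSP70 family, ranged only from 177.3 CPM in mutant 1 to 233.8 CPM in mutant 3, so a near-perfect r came with a small change in level. These are the highest values of a search over the whole table and are given as a description.

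The genes most like *Tac1* were *Sdk2*, *Atp2c1*, *AW551984*, *Tmem74* and *Plxnc1*, with r from 0.989 to 0.994. *Sdk2*, a cell adhesion gene of the sidekick family, was at 46.0, 52.6 and 38.7 CPM in control libraries and 36.6, 30.7 and 39.8 CPM in the mutants. None of these 5 genes was called between genotypes, and their r with *Nr5a1* was between -0.47 and -0.30.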
